A study of Homo sapiens with 4 samples.

Results

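The genes described here encode 10 proteins of the wound matrix and the basement membrane: TNC, FN1, THBS1, TGFBI, SPARC, COL4A1, COL4A2, LAMC1, LAMB1 and HSPG2. They were chosen by name, as the rows of the deposited expression tables whose gene name was a member of the list, and they are 10 of the 58735 genes listed. After a wound, keratinocytes leave their basement membrane and migrate over a provisional matrix rich in fibronectin, into which matricellular proteins such as tenascin-C, thrombospondin-1 and SPARC are deposited; these proteins adjust adhesion and signalling more than they bear load. The basement membrane itself is built from networks of laminin and type IV collagen that perlecan, the product of HSPG2, links, and keratinocytes secrete part of it. Cells grip both kinds of matrix through integrins, dystroglycan and syndecans.

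RNA-seq was performed on HaCaT cells (HaCAT in the sample labels), an established line of human keratinocytes, to ask which transcripts change when ALKBH5, an RNA demethylase that removes m6A, is knocked down. Cells of wild-type genotype received a control siRNA (siControl), cells labelled as ALKBH5 knockdown received siRNA against ALKBH5 (siALKBH5), and each group had 2 libraries. All cells were grown in DMEM with fetal bovine serum and were transfected in plates with a Lipofectamine reagent, so the control libraries had undergone transfection as well. The cells are of 1 line in culture without a wound, and which of the ALKBH5 siRNAs was used, how long after transfection RNA was taken and whether the duplicates were separate cultures are not given in the sources used here. The p-values therefore measure only the spread between these libraries, which may be technical.

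The libraries held between 16017502 and 18837807 counts on genes, and 15075 genes, among them all 10 members, passed the expression filter. ALKBH5 gave 1512 and 1576 counts with siControl and 956 and 816 with siALKBH5, and its level after siALKBH5 was 55.5% of the control level. All 12 keratinocyte markers were detected, between 39 and 11300 CPM (counts scaled to a common library size), and their summed level was 19400 and 19000 CPM in siControl and 25000 and 25100 CPM in siALKBH5. The markers did not all move with this sum: 6 were higher, 3 (KRT17, TP63 and PERP) were lower and 3 did not pass the test. Of all genes tested, 19.3% were higher and 17.3% lower. KRT5 had the highest CPM, at 7160 and 6900 in siControl and 11200 and 11300 in siALKBH5. Of 10 fibroblast markers, COL1A2, PDGFRA, PDGFRB, THY1 and COL6A3 were at 0 in every library, and the summed level of the list was 22 and 22.8 CPM in siControl and 18.8 and 19.6 CPM in siALKBH5. Most of that sum was COL1A1, at 16.2 to 17.2 CPM, which did not pass the test (log2 fold change -0.043, adjusted p = 0.79, edgeR). The other fibroblast markers tested, DCN and LUM, fell past the fold cutoff. DCN went from 3.23 and 3.95 to 1.28 and 1.76 CPM (log2 fold change -1.25, adjusted p = 5e-04, edgeR). LUM went from 2.05 and 1.72 to 0.803 and 0.972 CPM (log2 fold change -1.08, adjusted p = 0.021, edgeR). LUM lost its call in 4 of 10 alternatives, which were DESeq2 (adjusted p = 0.11) and leaving out siControl replicate 1 or either siALKBH5 library. KDR was at 0 in every library among 8 endothelial markers, whose sum was between 32.5 and 35.5 CPM. The endothelial markers tested moved in opposite directions, VWF from 18.2 and 19.3 to 26.8 and 26.6 CPM (log2 fold change 0.51, adjusted p = 2.1e-05, edgeR) and CDH5 from 14.3 and 13.2 to 8.08 and 8.93 CPM (log2 fold change -0.69, adjusted p = 5e-05, edgeR). AIF1 was at 0 among 8 immune cell markers, whose sum was between 2.85 and 4.5 CPM. CD14, the only 1 tested, was at 2.11 and 2.78 CPM against 3.96 and 3.71 CPM (log2 fold change 0.64, adjusted p = 0.034, edgeR). Its call was lost in 5 of 12 alternatives, among them DESeq2 and leaving out siControl replicate 1 or either siALKBH5 library. Adjusted p was at most 0.16 over the edgeR, DESeq2 and limma alternatives that kept all 4 libraries. The mitochondrial share of counts was 10.2% in each siControl library and 9.63% and 9.64% with siALKBH5. The part of these differences in the results was not tested.

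Of the 10 genes, 9 were higher after siALKBH5 at an adjusted p under 0.05 from edgeR's quasi-likelihood test, and COL4A2 did not pass the test. The same threshold called 2913 of all 15075 genes tested higher, which is 19.3%. The calls of 7 of these 9 genes held under every alternative that tested them, and those of SPARC and TGFBI did not, so that DESeq2 called 7 of the 10 genes higher. With edgeR 0 of the 10 genes were lower, against 2610 of all genes tested, or 17.3%, and 0 were lower at an unadjusted p under 0.05 or with DESeq2 or limma. TNC alone also passed the fold cutoff of the study, a log2 fold change of 1 or more in size, which 1.62% of all genes tested passed upwards and 1.3% passed downwards. The median log2 fold change was 0.33 over the 10 genes and -0.0081 over all genes tested. The summed level of the 10 genes was 1360 and 1350 CPM in the siControl libraries and 1540 and 1530 CPM in the siALKBH5 libraries. In bulk RNA, a change in the RNA per cell and a change in the share of cells that make it cannot be told apart.

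**Figure D1:**
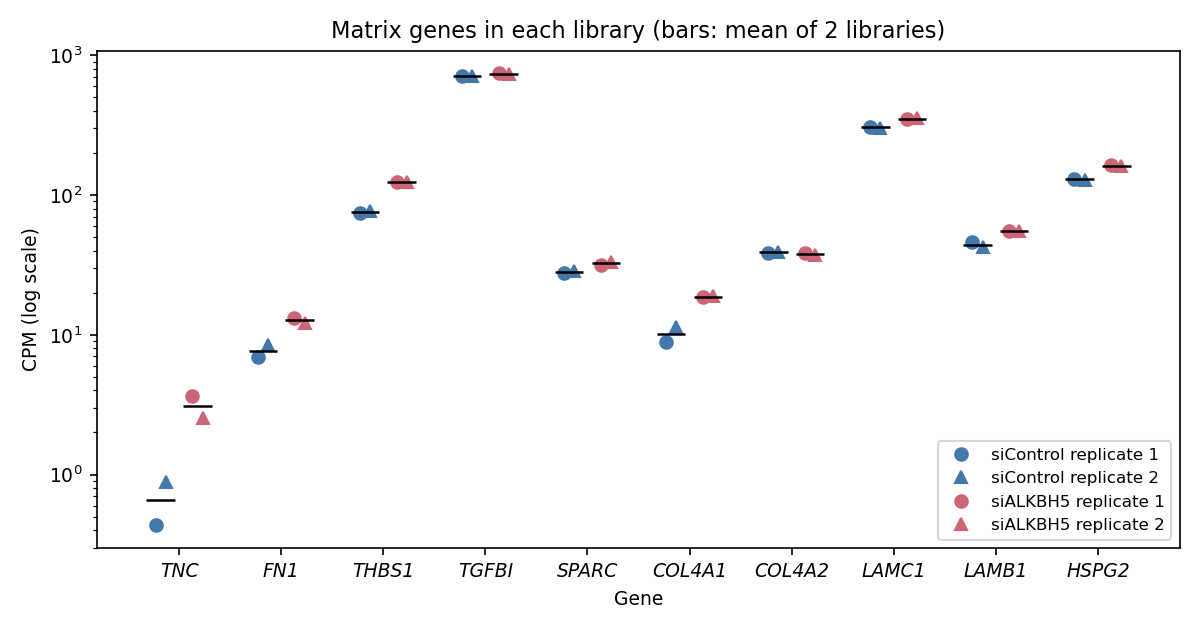
Level of each of the 10 genes in each library, in CPM on a log scale, with blue for siControl, red for siALKBH5, circles for replicate 1, triangles for replicate 2 and bars for the mean of the 2 libraries. TNC lies lowest, at 0.434 to 3.64 CPM, and TGFBI highest, at 707 to 742 CPM. The groups of COL4A2 overlap. The share of all genes tested whose groups do not overlap is not given here, so the lack of overlap elsewhere cannot be judged against it.

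Among the matricellular genes of the 10, TNC and THBS1 rose most, and TNC showed the largest change of the 10 genes. TNC encodes tenascin-C, a large glycoprotein that is sparse in resting skin and deposited under the wound edge. It gave 7 and 16 counts with siControl and 68 and 42 with siALKBH5, or 0.434 and 0.889 CPM against 3.64 and 2.55 CPM. Both siALKBH5 libraries were above both siControl libraries, and the libraries within each group also differed. TNC rose by 2.20 on the log2 scale (standard error 0.36, 95% interval 1.46 to 2.94, adjusted p = 9.4e-06, edgeR), which ranked 20 of 15075 by log2 fold change. Without siControl replicate 2 the log2 fold change was 2.82, and without siControl replicate 1 it was 1.80, so the size of the rise rests on few control reads, although the adjusted p stayed between 4.4e-10 and 0.00074 under the alternatives that tested it. The gene (ENSG00000041982) lies on chromosome 9 of GRCh38 from 115019578 to 115118257 on the minus strand, and its longest coding transcript has 28 exons.

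THBS1 encodes thrombospondin-1, a trimeric matricellular protein that binds CD47 and CD36 and can activate latent TGF-beta. It gave 1204 and 1392 counts with siControl and 2297 and 2028 with siALKBH5, or 74.7 and 77.4 CPM against 123 and 123 CPM. The groups were far apart and the libraries of each group close together. THBS1 rose by 0.69 on the log2 scale (standard error 0.043, adjusted p = 6.8e-15, edgeR), a level 1.62 times that of the control, and it ranged from 0.61 to 0.72 over all alternatives. THBS1 (ENSG00000137801) lies on chromosome 15 from 39581079 to 39599466 on the plus strand, and its deeper counts gave it an interval of 0.61 to 0.78, much narrower than that of TNC.

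The promoters of TNC and THBS1 are shown because these are the matricellular genes with the largest rises among the 10. Each sequence runs 5′ to 3′ on the strand of the gene from 250 bases before the RefSeq start to 50 bases after its first base, on GRCh38.p14 at chr9:115118108-115118407 (minus strand) and chr15:39580829-39581128 (plus strand). Capitals mark matches on either strand to TATAAA, the letters of a TATA box, to CCAAT, which NF-Y binds, to GGGCGG, which SP factors bind, to TGANTCA, which AP-1 binds, and to GGAATG, which TEAD factors bind, and matches to GGGCGG may overlap each other.
TNC: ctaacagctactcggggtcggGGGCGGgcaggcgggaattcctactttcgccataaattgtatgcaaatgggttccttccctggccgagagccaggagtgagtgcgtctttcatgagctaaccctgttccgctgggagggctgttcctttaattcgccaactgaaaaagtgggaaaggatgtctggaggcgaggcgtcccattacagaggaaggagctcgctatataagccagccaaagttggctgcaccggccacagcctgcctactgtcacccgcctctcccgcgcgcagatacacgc
THBS1: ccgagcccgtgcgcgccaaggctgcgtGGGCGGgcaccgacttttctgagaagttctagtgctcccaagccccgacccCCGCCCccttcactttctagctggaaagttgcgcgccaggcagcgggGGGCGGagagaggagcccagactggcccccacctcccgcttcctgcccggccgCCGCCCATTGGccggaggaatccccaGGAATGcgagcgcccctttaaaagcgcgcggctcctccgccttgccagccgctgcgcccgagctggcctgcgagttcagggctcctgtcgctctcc
The TNC window held 1 GGGCGG and none of the other motifs. The THBS1 window held 4 GGGCGG, 1 CCAAT and 1 GGAATG. Over the promoters of all 10 genes, GGGCGG was found in 9, CCAAT in 4, GGAATG in 2, and TATAAA and TGANTCA in 0. The shares of all 35116 promoters of the same length that held each motif were 45% for GGGCGG, 34.6% for CCAAT, 14% for GGAATG, 11.5% for TATAAA and 7.71% for TGANTCA. Only exact matches were searched for, so near matches to TATAAA, such as tatataag in the TNC window, were not counted. These matches are descriptions of letters in the windows, and a motif at 0 does not mean that a related element is absent.

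Of the remaining matricellular and adhesive genes, FN1 rose, and the calls for SPARC and TGFBI depended on the processing. FN1 encodes fibronectin, the adhesive protein at the centre of the provisional matrix. It gave 112 and 152 counts with siControl and 247 and 199 with siALKBH5, or 6.95 and 8.45 CPM against 13.2 and 12.1 CPM. The groups did not overlap, and the libraries of a group differed by less than the groups did. FN1 rose by 0.71 on the log2 scale (standard error 0.14, adjusted p = 7.8e-05, edgeR), and leaving out 1 library at a time kept this value between 0.59 and 0.87. FN1 (ENSG00000115414) lies on chromosome 2 from 215360440 to 215436172.

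SPARC encodes a collagen-binding glycoprotein that is also called osteonectin. It gave 445 and 517 counts with siControl and 594 and 545 with siALKBH5, or 27.6 and 28.7 CPM against 31.8 and 33.1 CPM. All 4 values were close, with the siALKBH5 libraries just above. SPARC differed by 0.20 on the log2 scale and passed the test (standard error 0.076, adjusted p = 0.036, edgeR), and 9 of 12 alternatives lost the call, among them DESeq2 (adjusted p = 0.15) and leaving out any 1 library, with adjusted p between 0.027 and 0.17 over all alternatives. SPARC (ENSG00000113140) is on chromosome 5 from 151661096 to 151687165.

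TGFBI encodes transforming growth factor beta induced protein, a secreted protein that binds collagens and integrins. It gave 11528 and 12725 counts with siControl and 13867 and 12139 with siALKBH5, or 715 and 707 CPM against 742 and 738 CPM. Both siALKBH5 libraries were above both siControl libraries, and their mean was 1.04 times that of siControl. Its log2 fold change of 0.057 passed the test (standard error 0.021, adjusted p = 0.033, edgeR). It was 0.035 with library size as the only scaling (adjusted p = 0.20, edgeR), and 7 of 12 alternatives lost the call. Over the alternatives that kept all 4 libraries, adjusted p ran from 0.0034 (edgeR with the replicate block, which kept the call) to 0.29 (limma). Leaving out siControl replicate 2 or either siALKBH5 library ended the call. TGFBI (ENSG00000120708) lies on chromosome 5 from 136028895 to 136063818.

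**Figure D2:**
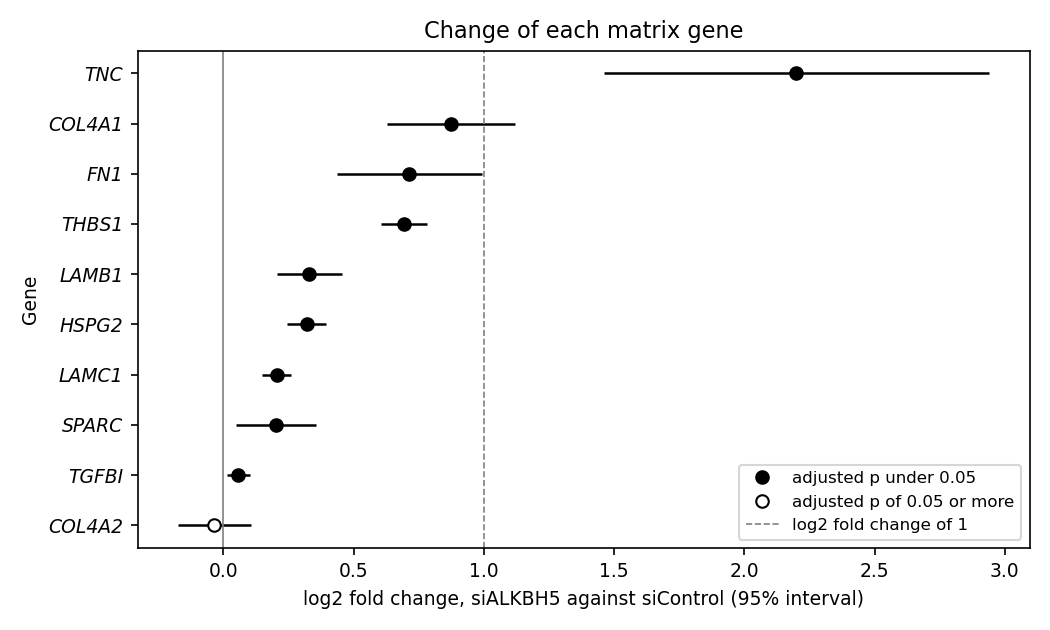
Log2 fold change of each gene (siALKBH5 against siControl) with its 95% interval from edgeR, filled where the adjusted p was under 0.05 and open otherwise, with a dashed line at a log2 fold change of 1. The interval of TNC, from 1.46 to 2.94, lies above the dashed line, that of COL4A1, from 0.63 to 1.12, crosses it, and that of COL4A2, from -0.17 to 0.10, includes 0.

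The type IV collagen genes, whose products form a trimer of the alpha1 and alpha2 chains in nearly all basement membranes, moved apart. COL4A1 gave 142 and 206 counts with siControl and 346 and 310 with siALKBH5, or 8.81 and 11.4 CPM against 18.5 and 18.8 CPM. The siALKBH5 libraries were close to each other and both above the higher siControl library. COL4A1 rose by 0.88 on the log2 scale (standard error 0.12, adjusted p = 4.8e-07, edgeR), a level 1.84 times that of the control, and without siControl replicate 2 the value was 1.08, past the cutoff of 1.

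COL4A2 gave 621 and 708 counts with siControl and 721 and 616 with siALKBH5, or 38.5 and 39.3 CPM against 38.6 and 37.4 CPM. The groups overlapped. Its log2 fold change was -0.0345 (standard error 0.068, 95% interval -0.17 to 0.10, adjusted p = 0.74, edgeR), and it stayed between -0.057 and -0.011 under all alternatives. The log2 fold change of COL4A1 was larger than that of COL4A2 by 0.91 (standard error 0.14, 95% interval 0.63 to 1.19), a difference computed after both values were seen and with the errors of the genes taken as independent. Per listed length, the ratio of COL4A1 to COL4A2 was 0.299 and 0.381 with siControl and 0.628 and 0.659 with siALKBH5. The ratio was thus higher in both siALKBH5 libraries, and its mean went from 0.34 ± 0.058 (SD, n = 2) to 0.643 ± 0.022 (SD, n = 2). Per longest coding transcript it was 0.224 and 0.286 with siControl and 0.471 and 0.494 with siALKBH5. The ratio itself was given no test, and an exact permutation test of 2 against 2 libraries cannot give a two-sided p under 0.333.

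These genes lie head to head on chromosome 13. COL4A1 (ENSG00000187498) spans 110148963 to 110307233 on the minus strand and COL4A2 (ENSG00000134871) spans 110305812 to 110513209 on the plus strand, and their annotated exons share no base. Their RefSeq starts, at 110307157 and 110307284, are separated by 126 bases, printed here from chr13:110307158-110307283 of GRCh38.p14 on the plus strand because the genes on either side responded differently. The sequence runs towards COL4A2, and capitals mark the motifs named above.
COL4A1-COL4A2: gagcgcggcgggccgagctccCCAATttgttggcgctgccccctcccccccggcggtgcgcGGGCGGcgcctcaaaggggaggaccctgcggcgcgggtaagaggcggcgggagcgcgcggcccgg
This stretch had a GC content of 80.2% and held 1 CCAAT and 1 GGGCGG. In windows of 300 bases, GC content was 76.7% for COL4A1 and 77.7% for COL4A2, against a median of 58.7% over all promoters of that length.

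The laminin and perlecan genes changed less than COL4A1, with narrow intervals. Laminins are trimers of an alpha, a beta and a gamma chain, and LAMC1 and LAMB1 encode the gamma1 and beta1 chains that are common in many basement membranes. LAMC1 gave 4961 and 5457 counts with siControl and 6538 and 5822 with siALKBH5, or 308 and 303 CPM against 350 and 354 CPM. LAMB1 gave 740 and 765 counts with siControl and 1036 and 915 with siALKBH5, or 45.9 and 42.5 CPM against 55.5 and 55.6 CPM. For both genes the siALKBH5 libraries were close together and above the siControl libraries. LAMC1 rose by 0.20 on the log2 scale (standard error 0.027, adjusted p = 2.3e-07, edgeR) and LAMB1 by 0.33 (standard error 0.061, adjusted p = 5.2e-05, edgeR), and neither lost its call under any alternative. LAMC1 (ENSG00000135862) is on chromosome 1 from 183023460 to 183145592 and LAMB1 (ENSG00000091136) on chromosome 7 from 107923799 to 108003255.

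HSPG2 encodes perlecan, a heparan sulfate proteoglycan that binds laminin, nidogen and growth factors. It gave 2112 and 2325 counts with siControl and 3070 and 2637 with siALKBH5, or 131 and 129 CPM against 164 and 160 CPM. The gap between the groups was far wider than that between the libraries of a group. HSPG2 rose by 0.32 on the log2 scale (standard error 0.037, adjusted p = 1.4e-08, edgeR), and the value was between 0.26 and 0.34 over all alternatives. HSPG2 (ENSG00000142798) lies on chromosome 1 from 21822245 to 21937297. Its exons share 2121 bases, or 11.7% of their length, with LDLRAD2 on the opposite strand, which had between 2 and 9 counts. Exons of TNC, THBS1, SPARC, COL4A2 and LAMB1 also share bases with genes on the opposite strand, at most 7.89% of their length per gene. A gene that shares 70 bases with LAMB1 had between 1690 and 1940 counts, and the others had at most 15. Whether reads were assigned by strand is not given in the sources used here.

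To see whether a single library carried a change, each siALKBH5 library was also set against each siControl library, as the log2 ratio of CPM with a prior count of 2, which gives 4 contrasts per gene and no test. All 4 contrasts were above 0 for every gene except COL4A2, whose contrasts were between -0.072 and 0.0023. They were between 1.41 and 2.77 for TNC, between 0.69 and 1.09 for COL4A1, between 0.51 and 0.92 for FN1 and between 0.67 and 0.72 for THBS1. THBS1 thus had nearly the same value in every contrast, whereas those of TNC, COL4A1 and FN1 were lower against siControl replicate 2 than against siControl replicate 1. The contrasts of HSPG2 were between 0.29 and 0.35, those of LAMB1 between 0.27 and 0.39, those of LAMC1 between 0.18 and 0.22, those of SPARC between 0.15 and 0.26 and those of TGFBI between 0.044 and 0.07. The median over all genes tested was between -0.0077 and -0.0025 in these contrasts. The share of all genes tested with all 4 contrasts above 0 is not given here. Whether contrasts above 0 throughout are more frequent among the genes described here than among all genes therefore cannot be judged.

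Levels of different genes were compared per length, as TPM, the count per kilobase of the listed length scaled to the same sum in every library. The listed length is the union of all annotated exons of a gene. TGFBI was the highest of the 10 with a mean of 263 TPM in siControl and held 57.9% of their summed TPM, followed by LAMC1 with 105 TPM and 23.1%. THBS1, at 24 TPM, and HSPG2, at 20.8 TPM, came next, followed by SPARC at 16.8 TPM and LAMB1 at 15.7 TPM. Below these were COL4A2 at 5.83, COL4A1 at 1.98, FN1 at 1.28 and TNC at 0.198 TPM. The ranges of the 4 libraries overlapped between THBS1 and HSPG2, between SPARC and LAMB1 and between COL4A1 and FN1, and the other neighbours in this order did not overlap. In siALKBH5 the order was the same except that LAMB1 and SPARC changed places, at 19.5 and 19.3 TPM, and the share of TGFBI was 53.6%. THBS1 went from 5.28% to 7.6% of the summed TPM and TNC from 0.0436% to 0.182%. With the length of the longest coding transcript in place of the listed length, TGFBI was at 732 TPM in siControl and held 75.7% of the summed TPM. Its listed length of 7810 bases is far longer than its longest coding transcript of 2804 bases. COL4A2 was then at 17.3, COL4A1 at 4.42 and FN1 at 2.49 TPM in siControl. LAMB1 stood above SPARC in both groups, and the ranges of HSPG2 and LAMB1 overlapped.

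The remaining laminin genes did not move as a block. Among the alpha chains, LAMA5 was at 232 and 231 TPM in siControl and 210 and 205 TPM in siALKBH5 and fell by 0.15 on the log2 scale (adjusted p = 1.7e-07, edgeR). LAMA3, the alpha chain of the laminin that anchors basal keratinocytes, was at 38.3 and 39.3 TPM against 42.4 and 42.8 TPM, and it rose by 0.14 (adjusted p = 5.1e-04, edgeR), a call that limma on FPKM lost with an adjusted p of up to 0.07 and that the other alternatives kept. LAMA2 gave 2 and 1 counts with siControl and 21 and 10 with siALKBH5, and it passed the test (adjusted p = 0.001, edgeR) at levels too low for a reliable fold. LAMA4, with 27 to 49 counts, did not pass (adjusted p = 0.079, edgeR), and LAMA1, with 4 to 10 counts, was not tested.

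Among the beta chains, LAMB3, a partner of LAMA3, was at 580 and 586 TPM in siControl and 570 and 565 TPM in siALKBH5 and did not pass the test (log2 fold change -0.029, adjusted p = 0.28, edgeR), whereas it passed as lower with library size as the only scaling (adjusted p = 0.041, within a range of 0.041 to 0.59 over all alternatives). LAMB2 was at 118 and 113 TPM against 94 and 92.9 TPM and fell by 0.29 (adjusted p = 1.5e-09, edgeR). LAMB4 had at most 4 counts in a library. Per length, LAMB1 made up 2.28% and 2.11% of the beta chain transcripts in siControl and 2.86% and 2.89% in siALKBH5, so that both siALKBH5 libraries had a higher share of LAMB1, which stayed a minor beta chain. The ratio of LAMB1 to LAMC1 was 0.154 and 0.145 in siControl and 0.164 and 0.162 in siALKBH5.

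Among the gamma chains, LAMC3 was at 0 in every library.

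**Figure D3:**
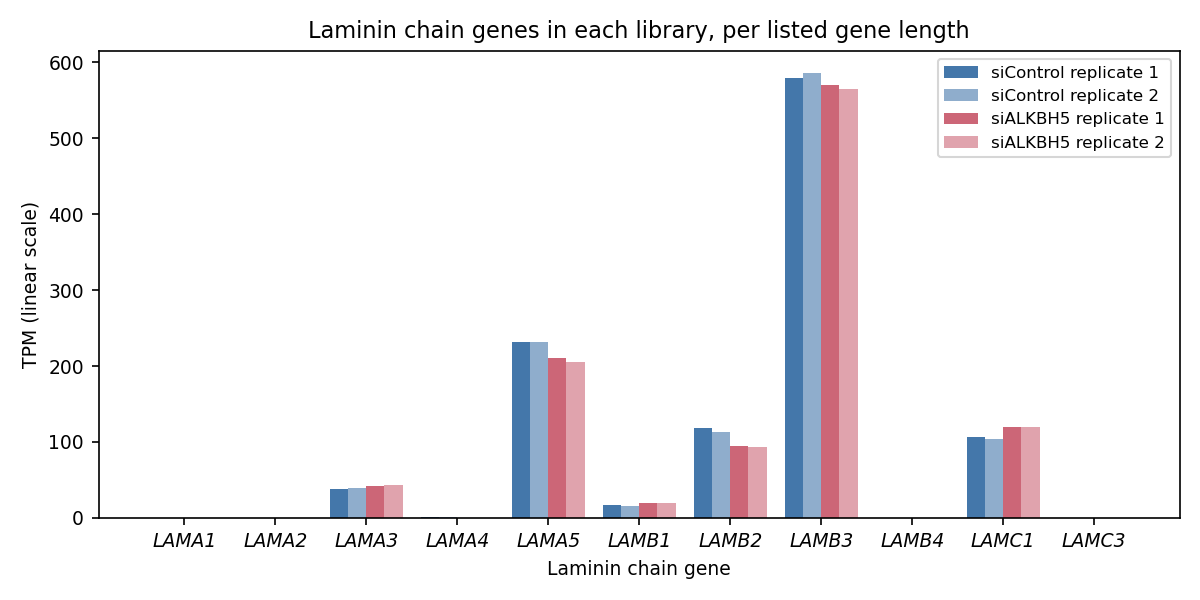
Level of 11 laminin chain genes in each library, in TPM per listed gene length on a linear scale from 0, with blue bars for the siControl libraries and red bars for the siALKBH5 libraries. LAMB3 is the tallest, at 565 to 586 TPM, LAMC1 is higher in both red bars, LAMB2 and LAMA5 are lower in both, and LAMA1, LAMA2, LAMA4, LAMB4 and LAMC3 are near or at 0.

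**Figure D4:**
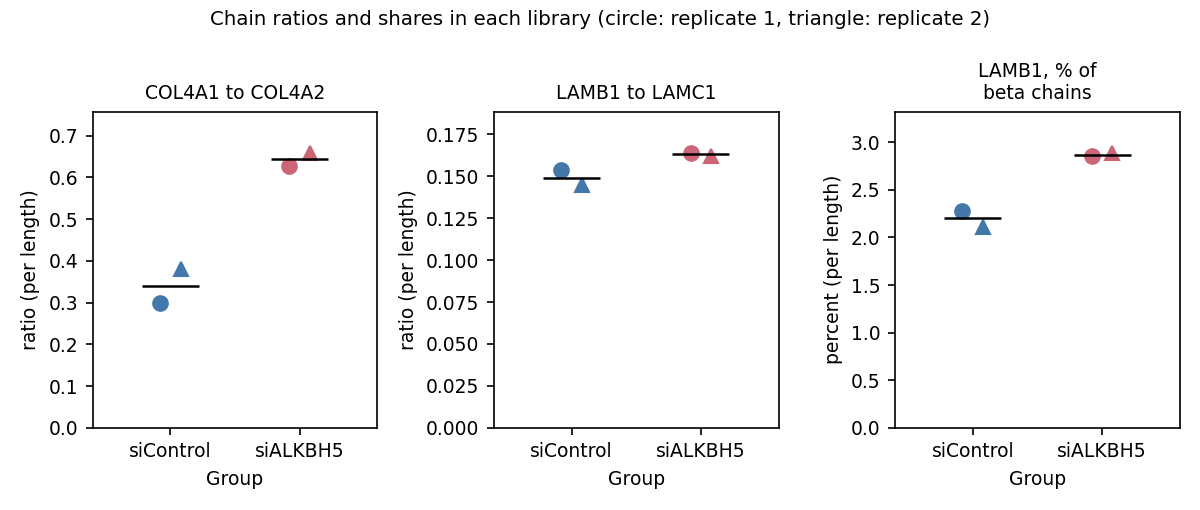
Ratios and shares of chains in each library, computed per listed length, with circles for replicate 1, triangles for replicate 2, bars for the mean and every vertical axis starting at 0. The COL4A1 to COL4A2 ratio is 0.299 and 0.381 in siControl and 0.628 and 0.659 in siALKBH5, and the LAMB1 share of beta chains is 2.28% and 2.11% in siControl and 2.86% and 2.89% in siALKBH5.

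Other genes of the same matrix were mixed in direction. Of 38 other provisional matrix and matricellular genes, 18 were tested, of which 4 were higher, 3 were lower and 11 did not pass, with a median log2 fold change of -0.099. Of all genes tested, 19.3% were higher and 17.3% lower, so calls in both directions were common beyond this list. With limma on log2(FPKM + 1), 2 genes of the list were higher and 2 lower, against 1848 and 1847 of 11823 genes in all. NOV (CCN3), a matricellular protein of the CCN family, rose from 7 and 10 counts with siControl to 38 and 29 with siALKBH5 (log2 fold change 1.92, adjusted p = 4.3e-04, edgeR). LGALS1, the lectin galectin-1, rose from 1441 and 1611 counts to 2602 and 2285 counts (log2 fold change 0.64, adjusted p = 1.2e-14, edgeR). THBS3, another thrombospondin, fell by 0.37 on the log2 scale (adjusted p = 0.0029, edgeR). FSTL1, a secreted protein related to SPARC, fell by 0.49 (adjusted p = 0.0054, edgeR). Its call was lost in 3 of 12 alternatives. These were limma on log2(FPKM + 1) and on log2(FPKM + 0.1) (adjusted p = 0.12 and 0.13, limma) and leaving out siALKBH5 replicate 2 (log2 fold change -0.27). In this list 9 genes were at 0 in every library, among them FGA, FGB and FGG, which encode the fibrinogen that a blood clot supplies.

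Of 28 other basement membrane genes, 20 were tested, of which 8 were higher, 4 were lower and 8 did not pass, with a median of 0.0066. The shares over all genes tested were 19.3% higher and 17.3% lower. DESeq2 called 7 genes of this list higher and 2 lower, against 2054 and 1444 of 13260 genes in all. With limma on log2(FPKM + 1), 5 were higher and 3 lower, against 1848 and 1847 of 11823 genes in all. HMCN1, which encodes the large matrix protein hemicentin-1, rose from 159 and 174 counts to 331 and 309 counts (log2 fold change 0.90, adjusted p = 1.2e-07, edgeR). COL18A1, the core of a proteoglycan collagen and source of endostatin, rose from 337 and 430 counts to 675 and 616 counts (log2 fold change 0.71, adjusted p = 9.9e-09, edgeR). LAMB2, described above, and FREM2, a basement membrane protein with few reads here, were the genes with the largest falls among those that the naming rule allowed. FREM2 had 37 and 35 counts against 20 and 18 counts, and its fall of 0.96 (adjusted p = 0.027, edgeR) lost its call with any 1 library left out and with DESeq2 (adjusted p between 0.02 and 0.16 over all alternatives).

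Of 28 receptor genes, 24 were tested, of which 12 were higher, 5 were lower and 7 did not pass, with a median of 0.14. Over all genes tested 19.3% were higher and 17.3% lower. DESeq2 called 11 of the receptor genes higher and 1 lower, against 2054 and 1444 of 13260 genes in all. With limma on log2(FPKM + 1), 7 were higher and 3 lower, against 1848 and 1847 of 11823 genes in all. ITGA1, the alpha1 integrin chain that pairs with beta1 to bind type IV collagen, rose from 12 and 8 counts with siControl to 35 and 49 with siALKBH5 (log2 fold change 2.02, adjusted p = 1.4e-04, edgeR). ITGA4, part of a fibronectin receptor, rose from 60 and 58 counts to 113 and 95 counts (log2 fold change 0.77, adjusted p = 0.0016, edgeR). The falls were small. CD47, the receptor of thrombospondin-1, fell by 0.11 (adjusted p = 0.031, edgeR) and ITGAV, the alpha chain of the vitronectin receptors, by 0.15 (adjusted p = 0.0062, edgeR). The call for CD47 was lost in 7 of 12 alternatives. Among them were DESeq2 (adjusted p = 0.17), both limma settings and leaving out siControl replicate 1, siControl replicate 2 or siALKBH5 replicate 1. That for ITGAV was lost in 4 of 12, which were DESeq2 (adjusted p = 0.063), both limma settings and leaving out siControl replicate 2.

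Of 25 genes for collagen folding, processing and crosslinking, 20 were tested, of which 15 were higher, 1 was lower and 4 did not pass, where 19.3% of all genes tested were higher and 17.3% lower. The median was 0.29, against -0.0081 over all genes tested, and the list was not tested as a set. LOXL2, a lysyl oxidase that crosslinks type IV collagen, gave 71 and 75 counts with siControl and 172 and 153 with siALKBH5. Both siALKBH5 libraries were thus far above the siControl libraries, and LOXL2 rose by 1.11 on the log2 scale (standard error 0.16, adjusted p = 1e-06, edgeR). P3H1, a prolyl 3-hydroxylase, rose from 170 and 184 counts to 277 and 259 counts (log2 fold change 0.56, adjusted p = 3.2e-04, edgeR). P4HA1, a catalytic chain of prolyl 4-hydroxylase, was the gene that fell, by 0.34 (adjusted p = 5e-06, edgeR).

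Of 18 genes for TGF-beta ligands, receptors and immediate targets, all 18 were tested, of which 1 was higher, 7 were lower and 10 did not pass, with a median of -0.11. Among all genes tested 19.3% were higher and 17.3% lower. SKIL, a target that feeds back on SMAD proteins, fell by 0.46 (adjusted p = 1.6e-06, edgeR), and PMEPA1, another target that restrains the pathway, fell by 0.41 (adjusted p = 2.2e-04, edgeR). Neither lost its call under an alternative.

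**Figure D5:**
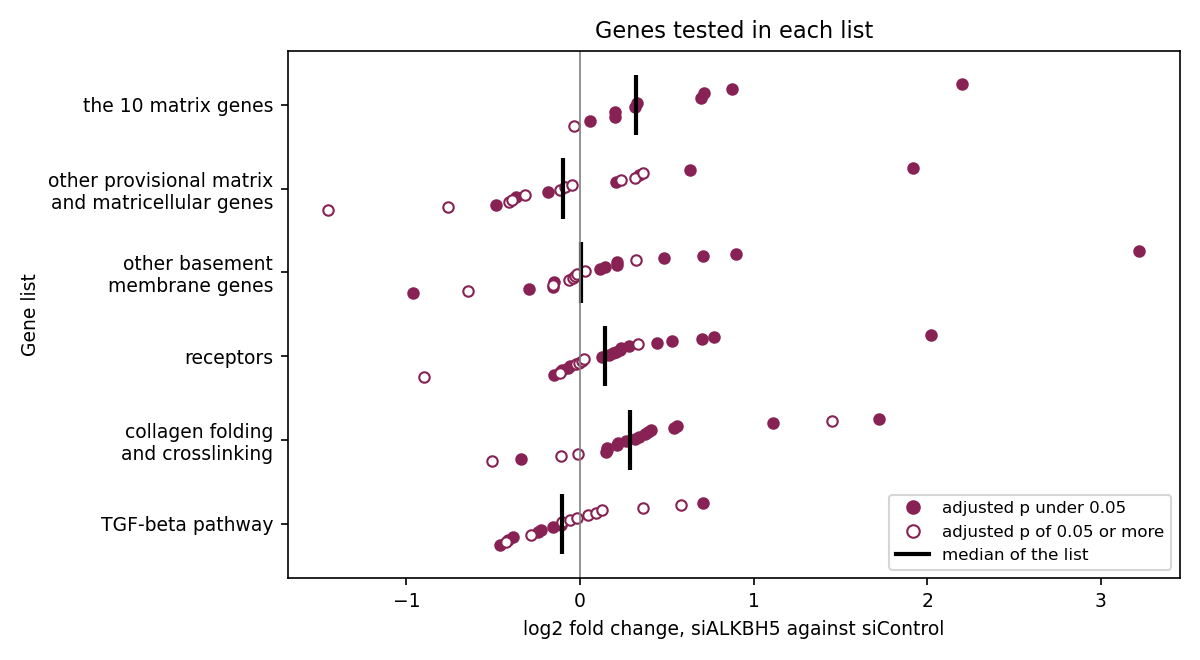
Log2 fold change (siALKBH5 against siControl) of each gene tested in the 10 matrix genes and in 5 further lists, filled where the adjusted p was under 0.05, with a black bar at the median of each list. The medians are 0.33 for the 10 matrix genes, -0.099 for the other provisional matrix genes, 0.0066 for the other basement membrane genes, 0.14 for the receptors, 0.29 for collagen folding and crosslinking and -0.11 for the TGF-beta genes.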

How the data were processed

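RNA-seq of HaCaT cells was analysed, with 2 siControl and 2 siALKBH5 libraries. Libraries were made from poly-T purified mRNA and run on a NovaSeq instrument, and the authors deposited 2 tables, each with raw counts per gene and FPKM for 1 library of either group. The submitters' processing notes name HISAT2 2.0.5, featureCounts 1.5.0-p3, DESeq2 1.20.0, CASAVA and the build hg38, with no role given. The FPKM that the authors deposited were scaled within each table and were not used, nor were their comparisons of 1 library with 1, which hold fold changes and p-values. Groups came from the sample titles, and 0 columns with values of a sample were without a match. All 58735 gene identifiers, positions and listed lengths were those of GENCODE 29.

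The groups were compared with the quasi-likelihood test of edgeR 4.0.16 under R 4.3.3, 2-sided and without covariates, after filterByExpr and TMM scaling, with Benjamini-Hochberg adjustment over all 15075 genes tested. Standard errors come from the same fit. CPM are scaled with TMM factors, and TPM are per listed length. Alternatives were DESeq2 1.42.0, the size factors of DESeq2 within edgeR, scaling by library size alone, leaving genes unfiltered, a filter at a mean of 10 counts, a replicate block, limma 3.58.1 on FPKM recomputed from the counts (mean of 1 or more, log2 scale with 1 or 0.1 added), each library left out in turn, and other lengths. The length of the longest coding transcript and the difference between COL4A1 and COL4A2 were added after seeing the data. The steps were tested on simulated data whose planted changes were at or past the fold cutoff and left out genes with few counts. That test therefore does not cover the smaller changes reported here or genes with few counts. Counts bound the precision through counting error only.

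The 10 genes and all lists were chosen with earlier results of these data known, so no list was tested as a set. From each list that is not a marker list, up to 4 genes are named: the 2 largest rises and the 2 largest falls among genes that passed the test, averaged 1 CPM or more and moved the same way in both replicate pairs. Laminin chains are named as well, the results of some genes that these rules name are not reported here, and FGA, FGB and FGG, LDLRAD2 and the marker genes given with values were named after their values were seen. Promoters are from RefSeq, and all 10 genes were matched by symbol.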

Additional observations from a re-analysis of the deposited data

How the results depend on the processing

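The rises of TNC, FN1, THBS1, COL4A1, LAMC1, LAMB1 and HSPG2 kept their direction and their call under all alternatives that tested them, and those of TGFBI and SPARC did not keep the call. With limma on log2(FPKM + 1) and on log2(FPKM + 0.1), 4 of the 10 genes were higher and 0 of them passed the fold cutoff, and TNC, FN1 and COL4A1 were not tested there because their mean FPKM was below the minimum. Leaving out each library in turn gave 7 to 8 higher genes, and 1 to 2 past the fold cutoff, the latter without siControl replicate 2. No log2 fold change of a gene named changed its sign under an alternative that tested it. COL1A1 and the keratinocyte markers are outside this statement, because their values were not followed under the alternatives. Fewer genes were tested with DESeq2 (13260) and with limma (11823) than with edgeR (15075), so the counts that follow are over different sets. Over all genes, DESeq2 called 1444 lower, and 130 higher and 59 lower past the fold cutoff, against 2610, 244 and 196 with edgeR. limma on log2(FPKM + 1) called 1848 higher, and 35 higher and 32 lower past the fold cutoff, and on log2(FPKM + 0.1) it called 1838, 94 and 69, against 2913, 244 and 196. The cause was not tested. The replicate number only names a library in the labels, although each deposited table holds 1 library of each group under the same number, and the correlation of the deviations of same-numbered libraries was 0.0337 over all genes tested and 0.1 over those above the median level. With the replicate block 9 of the 10 genes were higher, and 3091 genes were higher and 2831 lower in all. Depth limits TNC most, with 7 and 16 counts in siControl, and 2 libraries a group with no stated separate cultures limit every p-value.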
